A study of Homo sapiens with 13 samples.

Results

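Chromosome 14 carried 1194 of the 129347 accessible regions (peaks) that the authors counted in T98G, a human glioblastoma cell line. All peaks placed on that chromosome of the hg19 build were taken. The chromosome was selected on the density of its distal peaks, so their number and density are given as a description without a test. Peaks were classed by how far they lie from the transcription start sites (TSSs) of the GENCODE annotation. The 435 promoter peaks overlap a TSS, the 182 flanking peaks lie within 2 kb of one, and the 577 distal peaks lie farther than 2 kb from every TSS. The other autosomes held 15219 promoter, 16568 flanking and 94782 distal peaks.

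Accessibility was measured by ATAC-seq, in which the Tn5 transposase inserts sequencing adapters into open DNA, in 3 libraries from G1 and 3 from M-phase. G1 cells had been deprived of serum for 72 h, and M-phase cells had been deprived of it for 48 h and then released for 36 h into serum with nocodazole, which depolymerizes microtubules and holds cells in mitosis. Both groups are cells of the same line, and nothing in the labels says whether the replicates were separate cultures, so the p-values measure only the spread between these libraries. The sample titles list 6 M-phase runs, a HiSeq and a NextSeq run for each replicate, and 3 G1 runs without a sequencer. How the M-phase runs were joined into 3 columns is not given. Phase, serum and any difference in sequencing platform therefore cannot be told apart.

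A promoter is the stretch around a start site where the transcription machinery assembles, and many promoters of widely expressed genes lie in CpG islands. Distal accessible sites include enhancers, which are bound by sequence-specific factors such as the FOS and JUN proteins of AP-1, and sites bound by the insulator protein CTCF. Chromosome 14 is acrocentric. Its short arm holds ribosomal RNA arrays that the assembly leaves as N, its long arm starts with gene families such as the T cell receptor alpha and delta segments and the RNase A genes, and it ends with the immunoglobulin heavy chain locus.

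The sequences on which the results turn are given on the GRCh37 assembly, the assembly of hg19. The first 3 come from the peaks with the largest rises in M-phase among those with a mean of at least 50, and the capitals mark a run of 40 bases that all 3 share. The 90 bases read as genes of a transfer RNA (tRNA) for proline, a class that RNA polymerase III transcribes from a promoter inside the gene.
Distal peak near RNASE11, chr14:21081549-21081638, minus strand: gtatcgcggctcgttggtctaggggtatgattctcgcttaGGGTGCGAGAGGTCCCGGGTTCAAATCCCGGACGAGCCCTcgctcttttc
RNASE11 promoter peak, chr14:21077484-21077573, minus strand: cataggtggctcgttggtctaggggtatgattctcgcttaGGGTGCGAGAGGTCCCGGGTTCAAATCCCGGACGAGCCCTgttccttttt
RNASE4 and ANG promoter peak, chr14:21152168-21152257, plus strand: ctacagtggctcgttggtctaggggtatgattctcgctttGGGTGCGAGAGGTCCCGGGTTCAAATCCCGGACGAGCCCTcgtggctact
The next pair comes from distal peaks that lost accessibility in M-phase and was chosen for its AP-1 sites. The capitals mark AP-1 sites (TGACTCA or its reverse complement TGAGTCA) and a forkhead site (TGTTTAC, here as its reverse complement GTAAACA).
Distal peak nearest to C14orf132, chr14:96562220-96562419, plus strand: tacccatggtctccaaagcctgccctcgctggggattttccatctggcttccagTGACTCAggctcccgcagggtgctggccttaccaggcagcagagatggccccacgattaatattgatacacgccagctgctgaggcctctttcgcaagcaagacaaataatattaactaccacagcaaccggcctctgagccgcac
Distal peak in the gene desert beyond LRFN5, chr14:42662404-42662603, plus strand: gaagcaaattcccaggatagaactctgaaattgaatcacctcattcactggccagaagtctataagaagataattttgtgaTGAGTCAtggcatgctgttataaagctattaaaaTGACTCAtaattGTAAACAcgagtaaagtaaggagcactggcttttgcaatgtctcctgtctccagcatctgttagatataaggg
The last is the middle of a distal peak near the centromere, and the same 50 bases stand once more in the assembly, on chromosome 22.
Distal peak with a copy on chromosome 22, chr14:19201961-19202010, plus strand: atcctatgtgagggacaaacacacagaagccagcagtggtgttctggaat

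Values are reads per peak after the authors had brought every library to the size of the smallest, called scaled counts here. Over the whole genome they summed to 4191845 to 5092426 per library in G1 and 5475345 to 6000423 in M-phase. By the size of a single read in each column, chromosome 14 held 54095 to 66456 reads in the G1 libraries and 185997 to 215092 in the M-phase libraries, so its M-phase values carry less counting error. Peaks with a TSS were present for 9 of 10 genes that mark T98G-like mesenchymal glioma cells (all but NES). Of these 9, the SOX2 peak held only 11.6 ± 4.05 in G1 and 7.70 ± 1.71 in M-phase (SD, n = 3) and was too low to test. Of 8 markers of other cell types 1 had such a peak, EPCAM, at 91.6 ± 28.9 in G1 and 107 ± 12.6 in M-phase (SD, n = 3). Phases were compared with limma, on log2(scaled count + 8), over the 73121 peaks with enough reads, and an adjusted p under 0.05 was called.

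Chromosome 14 had promoter peaks in proportion to its genes and few distal peaks. It makes up 3.29% of the autosomal sequence that is not N and holds 3.20% of the protein-coding genes and 2.78% of the promoter peaks, but 1.09% of the flanking and 0.605% of the distal peaks. Of its 616 protein-coding genes 421, or 68.3%, had a promoter peak, and the other autosomes had a median share of 68.8%. The distal peaks numbered 6.54 per Mb, the lowest density of the 22 autosomes. The other 21 reached from 11.6 per Mb on chromosome 4 to 90.1 on chromosome 20, with a median of 37.5. The promoter peaks numbered 4.93 per Mb, which ranked 9 from the lowest, and the other autosomes had a median of 5.98.

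**Figure D1:**
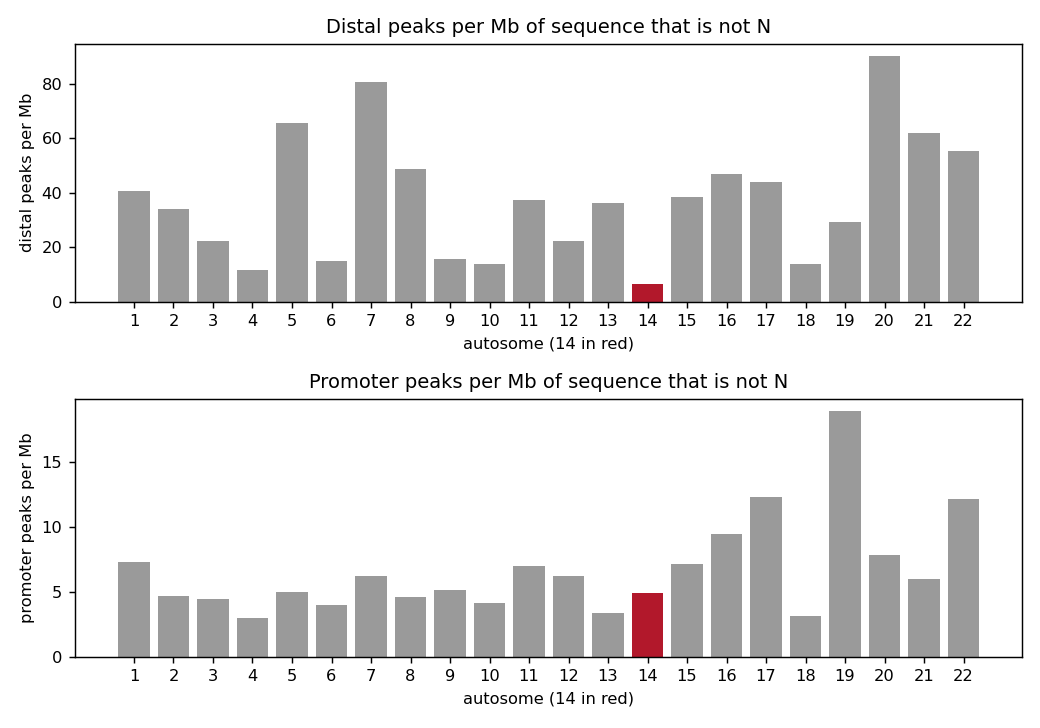
Distal peaks (top) and promoter peaks (bottom) per Mb of sequence that is not N on each autosome, with chromosome 14 in red. Chromosome 14 has the lowest bar for distal peaks, 6.54 per Mb, and a bar of 4.93 per Mb for promoter peaks, within the range of the others.

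There were 1.33 distal peaks for every promoter peak on chromosome 14. The ratio was next lowest on chromosome 19, at 1.54, where promoters are dense, and its median over the other autosomes was 5.02. Distal density on chromosome 14 stayed the lowest when a distance of over 10 kb was required (3.67 per Mb), when only TSSs of protein-coding genes counted (8.62), and when peaks in CpG islands were left out (6.08). It was also lowest for peaks whose scaled count averaged at least 10 (3.69 per Mb, against a median of 16.8 on the other autosomes). Of the strong distal peaks, with a mean of at least 50, chromosome 14 had 42, or 0.476 per Mb, where the other autosomes had a median of 2.76. Around the 2 kb line that divides the classes, the nearest flanking peak (chr14:19527583-19527968) lay 1990 bp from a TSS and held 4.30 ± 0.608 in G1 and 8.80 ± 2.65 in M-phase (SD, n = 3). The nearest distal peak (chr14:69406753-69407115), in an intron of ACTN1, lay 2034 bp from a TSS and held 25.4 ± 8.11 and 32.0 ± 5.77.

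In windows of 5 Mb counted from the chromosome start, the first 3 windows were wholly N. Windows 5 to 21 were complete, and their 85 Mb held 442 distal peaks, or 5.20 per Mb. These 17 windows had 9 to 64 distal peaks each with a median of 22, while the 394 complete windows of the other autosomes had 12 to 831 with a median of 147.5. Only 4 of those 394 windows, or 1.02%, had 22 distal peaks or fewer, and all 17 windows of chromosome 14 lay below the median of the others. For promoter peaks the median was 22 per window on chromosome 14 and 21 elsewhere. The low numbers of distal peaks were thus found in all complete windows and not in a single stretch.

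**Figure D2:**
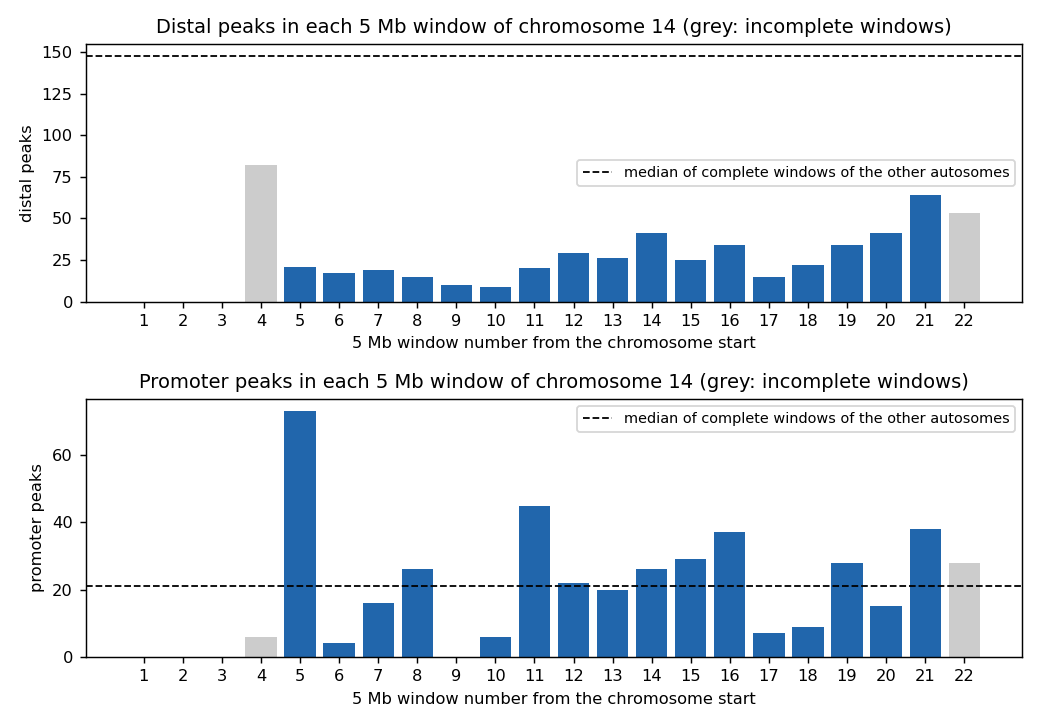
Distal (top) and promoter (bottom) peaks in each 5 Mb window along chromosome 14, with grey bars for the incomplete windows 4 and 22 and a dashed line at the median of complete windows of the other autosomes. Every complete window lies below the line of 147.5 for distal peaks, whereas promoter peaks lie on both sides of the line of 21.

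Among complete windows, window 10 had the fewest distal peaks, 9, beside 6 promoter peaks. Window 9, which holds 2 protein-coding genes, had 10 distal peaks and 0 promoter peaks. Window 21 had the most, 64, beside 38 promoter peaks and the highest GC content of the complete windows, 48.7%. Window 5 was the richest in genes, with 150 protein-coding genes and 73 promoter peaks, but held only 21 distal peaks.

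Chromosome 14 had 8 stretches of at least 1 Mb outside N without any peak, which added up to 12.03 Mb, and the next were chromosome 4 with 7 and chromosome 6 with 3. Stretches of over 300 kb numbered 53 on chromosome 14, fewer than the 86 on chromosome 4, 61 on chromosome 6 and 55 on chromosome 10. Genes were listed where any part of them overlapped a stretch, so a gene may reach only partly into it. The longest, 2.17 Mb (chr14:39902513-42076126), ends at the start of LRFN5, a synaptic adhesion gene. The second, 2.04 Mb (chr14:48008644-50052645), overlaps RPS29, a ribosomal protein gene, and MDGA2, a neuronal adhesion gene. The third, 1.71 Mb (chr14:25602244-27311187), overlaps NOVA1, a neuronal splicing regulator.

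Both incomplete windows stood apart from the rest. Window 4, with 1 Mb that is not N next to the centromere, held 82 distal peaks, 14.2% of those on the chromosome. In 77 of its 103 peaks the central 50 bases stand elsewhere in the assembly without a mismatch, and for 74 of them a copy is on chromosome 22. Reads of such copies could have been placed at either locus, since mapping kept 1 of up to 3 locations. The example printed above (chr14:19200603-19203370) held 57.7, 57 and 30 in the G1 libraries and 65.9, 50.7 and 77.5 in the M-phase libraries, so the phases overlapped. In window 22, which ends with the immunoglobulin heavy chain genes, 53 distal peaks were called in 2.29 Mb, and 18 of its 118 peaks had a copy, each of them with one on chromosome 14 itself. Over the whole chromosome 10.4% of peaks had a copy, against 5.46% on the other autosomes, and without them distal density was 5.58 per Mb.

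Promoter peaks on chromosome 14 were weaker than elsewhere, and distal peaks were not. The median promoter peak held 80.5, 71.9 and 97 scaled counts in the G1 libraries and 117.4, 129 and 130.4 in the M-phase libraries. On the other autosomes these medians were 118.3, 110.9 and 136 in G1 and 152.8, 165.2 and 170.8 in M-phase. In each of the 6 libraries the value for chromosome 14 was the lowest of the 22 autosomes, at 0.648 to 0.713 of the others in G1 and 0.763 to 0.781 in M-phase. Among promoters in CpG islands, which were 85.3% of those on chromosome 14 and 76.3% elsewhere, the median in G1 was 94.0 against 110.3 to 212.9 on the other autosomes. Peak width did not go with it, with a median of 1156 bp for promoter peaks on chromosome 14 and 1158 bp for the median of the other autosomes. Over the 22 autosomes, the median promoter level in G1 went with distal density, on which chromosome 14 was selected. Pearson's r was 0.74 for all promoter peaks and 0.78 for those in CpG islands. Peaks were called on these same libraries, so levels are not independent of the number of peaks. The low promoter level is thus a description too.

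**Figure D3:**
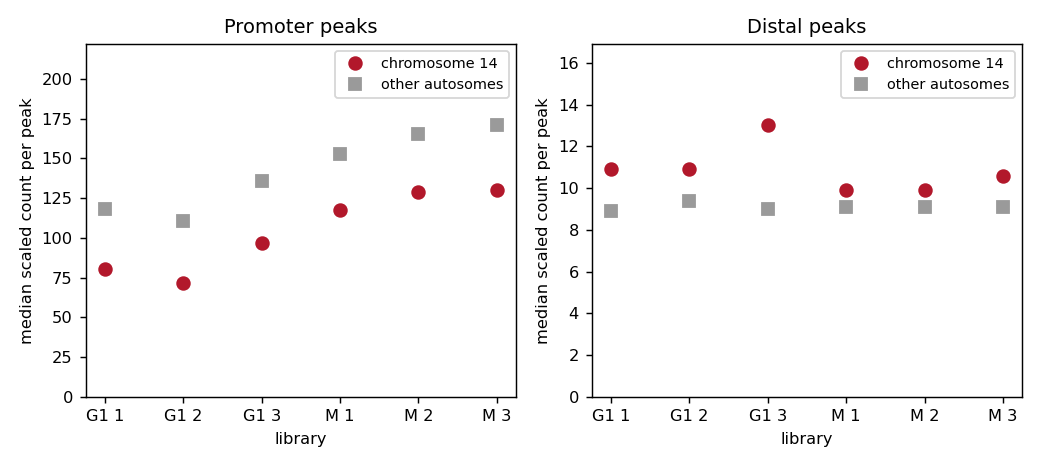
Median scaled count per promoter peak (left) and distal peak (right) in each library, with chromosome 14 as red circles and all other autosomes as grey squares. The circles lie below the squares in every library for promoters, from 71.9 to 130.4, and above them in every library for distal peaks, from 9.9 to 13.

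The median distal peak held 10.9, 10.9 and 13 in G1 and 9.9, 9.9 and 10.6 in M-phase, against 8.9 to 9.4 on the other autosomes. Distal peaks on chromosome 14 were also the widest, with a median of 281 bp against a median of 222 bp.

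The 577 distal peaks lay in intergenic sequence in 285 cases, in introns in 253 and over exons in 39. Their median distance to a TSS was 12.1 kb, against 15.5 kb on the other autosomes, and their median GC content 51.4%, against 48.9%. Motifs were searched on both strands of the central 200 bases. They were fixed letters, except for the CTCF motif, a pattern that allowed several letters at some positions. An AP-1 site as printed above was found in 101 distal peaks, or 17.5%, the highest share of the 22 autosomes, while the others reached from 6.67% to 16.1%, with 9.56% over all their distal peaks. The share differed with the level of the peaks. Among distal peaks with a mean of 10 to 50 the share was 23.6% on chromosome 14 (67 of 284) and 12.4% elsewhere, but among those of at least 50 it was 16.7% (7 of 42) and 20.3%. The CTCF motif was found in 2.43% of distal peaks against 1.33%, the RUNX letters TGTGGTT in 6.07% against 5.20%, the TEAD letters GGAATG in 15.8% against 13.1%, and the forkhead letters TGTTTAC in 2.95% against 3.17%. These shares describe letters in the sequence and not bound factors.

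Promoter peaks of chromosome 14 mostly gained accessibility in M-phase. Of 422 tested, 236 were higher in M-phase, or 55.9%, and 5 were lower (limma, adjusted p under 0.05). Over the promoter peaks of all autosomes 43.6% were called higher and 5.79% lower. The median log2 change was 0.63 on chromosome 14 and 0.39 on the others. An equal total in peaks for every library lowered the median change of all peaks from 0.02 to -0.24. With it 172 were higher and 31 lower. These were 40.8% and 7.35% of those tested, against 29.4% and 17.2% on the other autosomes. A trended loess takes out the change that goes with the level of a peak. Under it 170 were higher and 10 lower, or 40.3% and 2.37%, against 20.9% and 17.5% on the others. The median was then 0.37 on chromosome 14 and 0.06 on the others. Inside CpG islands 216 of 366 promoter peaks were higher and 3 lower, and outside them 20 of 56 were higher and 2 lower. On the other autosomes 51.1% and 14.3% of these 2 kinds of promoter were higher.

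The share of autosomal promoter counts that fell on chromosome 14 was 1.80%, 1.71% and 1.84% in G1 and 1.96%, 1.98% and 1.95% in M-phase. The phases did not overlap, with means of 1.78 ± 0.0655% and 1.96 ± 0.0159% (SD, n = 3). An exact permutation test (two-sided) gave p = 0.1, and with 3 libraries against 3 no smaller p is possible. On the log2 scale the median promoter of chromosome 14 minus that of the other autosomes was -0.51 ± 0.06 in G1 and -0.36 ± 0.02 in M-phase (exact permutation test, p = 0.1). The distal share was 0.654 ± 0.0388% in G1 and 0.692 ± 0.0138% in M-phase, and the phases overlapped (exact permutation test, p = 0.3).

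Among peaks called with a mean of at least 50 and no overlap between phases, the largest rises lay in the RNase A gene region of window 5. The peak over the starts of RNASE4 and ANG (chr14:21149722-21153047), genes of secreted ribonucleases that share their promoter region, held 221.7, 203.1 and 336 in G1 and 823.1, 925 and 907.5 in M-phase. Every M-phase library was above every G1 library, by a log2 change of 1.80 ± 0.17 (SE, limma adjusted p = 3.73e-15). The peak at the start of RNASE11 (chr14:21077371-21078644), a family member known from the male genital tract, held 63.6, 35.9 and 66 in G1 and 194, 265.4 and 248.3 in M-phase, a log2 change of 1.98 ± 0.21 (limma adjusted p = 1.74e-12). Of 13 RNase A genes 3 had a promoter peak, in these 2 peaks, and 10 had none.

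The largest distal rise at that level lay between them. The intergenic peak at chr14:21081246-21082410, 3785 bp from the start of RNASE11, held 82.5, 71.1 and 116 in G1 and 365, 374.5 and 366.2 in M-phase, which did not overlap. Its log2 change was 1.97 ± 0.19 (limma adjusted p = 3.27e-14), and it had the highest mean of all distal peaks on the chromosome. All 3 of these peaks hold the run printed above. Of the 90 bases shown, 79 were identical between the distal and the RNASE11 peak, with an unbroken stretch of 73, and 78 between the distal and the RNASE4 and ANG peak, with an unbroken stretch of 42. The run of 40 bases stood at 9 places on the autosomes and in 7 of their 127763 peaks (0.00548%), 3 of them on chromosome 14. All 7 peaks were higher in M-phase, by log2 changes of 1.36 to 2.52, and since the run was found in peaks chosen for their rise this is a description. The annotation used here lists 0 tRNA genes on the chromosome, so tRNA genes were not counted among the starts. The RNA polymerase III gene of the lists that could be matched, RN7SL2, an RNA of the signal recognition particle, rose from 156.1, 96.9 and 130 to 331.2, 393.1 and 468.2, a log2 change of 1.59 ± 0.19 (limma adjusted p = 4.87e-11).

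The other 3 of the 5 largest promoter rises at that level lay outside window 5. The shared promoter of SOCS4, an inhibitor of cytokine signalling, and WDHD1, a DNA replication factor, held 28.8, 44.5 and 73 in G1 and 157, 192.4 and 189.1 in M-phase, a log2 change of 1.79 ± 0.22. DYNC1H1, the heavy chain of cytoplasmic dynein, held 90.5, 122.7 and 113 in G1 and 339.4, 368.4 and 360.4 in M-phase, a change of 1.65 ± 0.19. PPP2R5C, a regulatory subunit of the phosphatase PP2A, held 234.6, 138.3 and 165 in G1 and 573.9, 572.3 and 530.3 in M-phase, a change of 1.63 ± 0.18. In none of the 3 did the phases overlap, and their limma adjusted p-values were 3.58e-10, 1.14e-11 and 2.49e-12. The promoter peak with the highest mean was that of YY1, a zinc finger transcription factor, which held 336, 281.3 and 355 in G1 and 807.4, 980.2 and 920.5 in M-phase, a change of 1.46 ± 0.16. The third highest, after RNASE4 and ANG, was that of TEDC1, a tubulin complex gene, with 331.7 ± 3.51 in G1 and 693 ± 24.8 in M-phase (SD, n = 3).

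Among called promoter peaks with a mean of at least 50, 2 fell without overlap and 211 rose. Rises also outnumbered falls on the other autosomes, at 43.3% and 5.92% of tested promoter peaks of any mean. The phases did not overlap, in either direction, in 63.3% of tested promoter peaks on chromosome 14 and 57.4% elsewhere. OTUB2, a deubiquitinase, held 52.7, 54.7 and 104 in G1 and 37.5, 35.8 and 50.5 in M-phase, a log2 change of -0.62 ± 0.25 (limma adjusted p = 0.0482). GPHN, which encodes the synaptic scaffold gephyrin, held 245.6, 186.7 and 283 in G1 and 157.4, 176.8 and 160.2 in M-phase, a change of -0.49 ± 0.19 (limma adjusted p = 0.0393). Neither call was firm. Without G1 replicate 3 the changes were -0.34 and -0.36, with adjusted p-values of 0.352 and 0.116, and without M-phase replicate 1 or 2 neither passed.

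**Figure D4:**
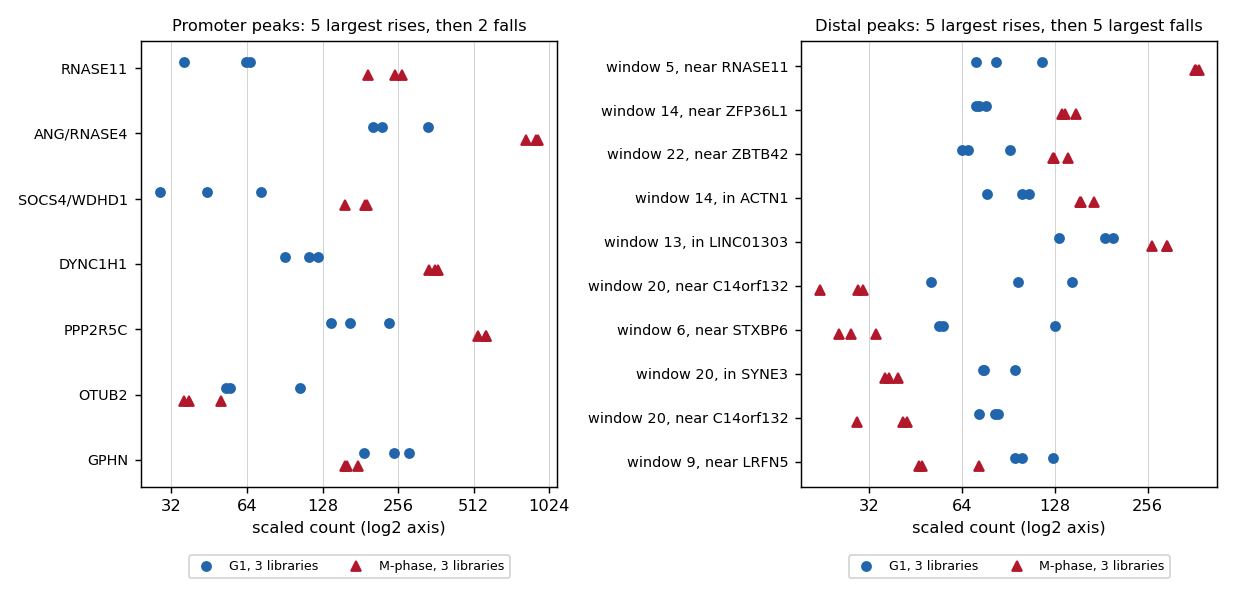
Scaled count of each library (log2 axis) for the promoter peaks with the 5 largest rises and the 2 falls (left), and for the 5 largest distal rises and falls (right), among calls with a mean of at least 50 and no overlap, with G1 as blue circles and M-phase as red triangles. In each of the 17 peaks shown the 3 M-phase values lie wholly above or wholly below the 3 G1 values.

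Counts in the gene lists stand beside the 55.9% of all tested promoter peaks on chromosome 14 that were higher, or 59.0% in CpG islands, and nothing particular to a list is read from them. Of 21 genes of cell division and DNA maintenance 20 had a promoter peak. Among the 19 tested, M-phase was higher in 13 and lower in 0, with a median log2 change of 0.77. CCNK, a cyclin of transcriptional kinases, rose from 260.5, 243.8 and 373 to 634, 734.7 and 785.8 (1.29 ± 0.17, limma adjusted p = 9.61e-10). PARP2, a poly(ADP-ribose) polymerase of DNA repair, rose by 0.51 ± 0.17 and PPP2R5E, another regulatory subunit of PP2A, by 0.55 ± 0.18. Under a trended loess scaling, though, their changes were -0.18 and -0.00305. With an equal total in every library neither passed, nor did PARP2 without G1 replicate 1 or 2 or M-phase replicate 2 or 3, nor PPP2R5E without G1 or M-phase replicate 2. CDKN3, a phosphatase of cyclin-dependent kinases, rose from 84.6 ± 25.4 to 169.7 ± 15.4 (SD, n = 3).

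All 17 genes of chromatin and the transcription machinery had a promoter peak, and 11 were higher and 0 lower, with a median of 0.80. BRF1, a subunit of the initiation factor TFIIIB of RNA polymerase III, rose from 127.3, 121.9 and 142 to 276.4, 349.4 and 305.1 (1.20 ± 0.19, limma adjusted p = 1.80e-07). GTF2A1, a subunit of the initiation factor TFIIA, rose by 0.97 ± 0.17, and ARID4A and RCOR1, of corepressor complexes, by 1.01 ± 0.17 and 1.20 ± 0.17. Under the loess GTF2A1 (0.20) and ARID4A (0.25) did not pass. PNN, a splicing-associated gene, held 136.2, 136.7 and 185 in G1 and 159, 139.7 and 157.8 in M-phase and did not pass.

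Of 28 sequence-specific transcription factors 20 had a promoter peak, in 19 distinct peaks since ZBTB1 and ZBTB25 share one. Of these 10 were higher and 0 lower, with a median of 0.49, and 8 factors had none, among them OTX2 and CEBPE. FOS, a subunit of AP-1, rose from 107 ± 15.7 to 208 ± 17.6, and HIF1A, the hypoxia factor, from 188.5 ± 87.4 to 358 ± 44.8 (SD, n = 3). NRL, a photoreceptor factor, rose by 0.99 ± 0.17, and the peak of the zinc finger genes ZBTB1 and ZBTB25 by 1.07 ± 0.18. NRL did not pass under the loess (0.24).

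Proteasome genes had a peak in 7 of 8 cases, of which 5 were higher and 0 lower. PSME2 and PSME1, activator subunits, rose by 0.75 ± 0.18 and 0.71 ± 0.21, and PSMA3 and PSMA6, core subunits, by 0.81 ± 0.20 and 1.17 ± 0.22. PSME2 did not pass under the loess (0.06), nor did PSME1 with an equal total (0.38) or without M-phase replicate 3 (0.52). Of 7 chaperone and stress genes with a peak 4 were higher, led by HSP90AA1, the inducible cytosolic HSP90, which rose from 153.1, 96.9 and 118 to 354.3, 428.1 and 371.5 (1.61 ± 0.19, limma adjusted p = 2.92e-11). SEL1L, of the degradation of proteins from the endoplasmic reticulum, held 266 ± 72.8 in G1 and 243 ± 48.2 in M-phase (SD, n = 3) and did not pass, but it was called lower with an equal total (-0.46) and under the loess (-0.70). Of 14 genes of growth signalling and matrix with a peak 9 were higher and 0 lower. ACTN1, an actin crosslinker, rose by 0.89 ± 0.17, FRMD6, a regulator upstream of the Hippo kinases, by 1.39 ± 0.19, and NPC2, a lysosomal cholesterol carrier, by 1.08 ± 0.18. ACTN1 did not pass under the loess (0.16). DAAM1, a formin, rose by 0.51 ± 0.18, which turned to -0.11 under the loess and passed in only 1 of the 6 fits that left out a library.

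Clusters of genes that are silent in most cells had almost no promoter peak. None was found at 45 olfactory receptors or at 127 T cell receptor alpha and delta segments, and 1 at 174 immunoglobulin heavy chain segments, at IGHG2, with 4.50 ± 1.32 and 7.57 ± 3.19 (SD, n = 3). In the imprinted DLK1 to MEG3 domain 1 of 6 genes had a peak, MEG3, a maternally expressed noncoding RNA, at 1.77 ± 0.681 and 2.50 ± 1.83, which was too low to test. Of 10 serpin A genes 1, SERPINA6, which encodes the glucocorticoid carrier of plasma, had a peak, and it rose from 8.9, 15.6 and 14 to 26.8, 35.8 and 59.2 (1.18 ± 0.28, limma adjusted p = 0.000692).

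Distal peaks of chromosome 14 changed in both directions. Of 340 tested, 45 were higher in M-phase, or 13.2%, and 78 were lower, or 22.9%. Over the distal peaks of all autosomes 6.13% were called higher and 15.3% lower. The median log2 change was -0.05 on chromosome 14 and -0.06 elsewhere, so the larger share of calls in both directions came with a similar centre. The distal peaks of chromosome 14 had higher counts, and what part of the larger share of calls this made was not tested. With an equal total in peaks for every library 25 were higher and 113 lower. These were 7.35% and 33.2% of those tested, against 2.83% and 27.1% on the other autosomes. Of the 493 distal peaks whose centre had no copy elsewhere 305 were tested, and 42 were higher and 77 lower. Of 76 tested distal peaks with an AP-1 site 5 were higher and 17 lower, with a median of -0.22, and of 264 without one 40 were higher and 61 lower, with a median of -0.01. On the other autosomes 11.8% of tested distal peaks with an AP-1 site were higher and 18.4% lower, against 5.22% and 14.8% without one, and both medians were -0.06. Whether chromosome 14 differs from them in this was not tested. Of 109 flanking peaks tested 18 were higher and 12 lower, where 8.28% and 11.8% of all autosomal flanking peaks were called.

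Among distal falls, the peak at chr14:96561989-96562651, an intergenic site 56621 bp from the start of C14orf132, held 97.4, 50.8 and 146 in G1 and 30.5, 22.2 and 29.4 in M-phase. The G1 libraries spread widely but none overlapped M-phase, and the log2 change was -1.49 ± 0.25 (limma adjusted p = 2.05e-06). A neighbour at chr14:96570830-96571461 held 72.6, 82 and 84 in G1 and 29.2, 42.4 and 41.4 in M-phase, a change of -0.95 ± 0.24. In an intron of SYNE3, which encodes a nesprin of the nuclear envelope, the peak at chr14:95973537-95974409 held 75.6, 75 and 95 in G1 and 37.1, 39.6 and 36.1 in M-phase, a change of -0.97 ± 0.24. These 3 lie in window 20. The peak at chr14:25580275-25580884, 61226 bp from STXBP6, held 55.7, 53.9 and 128 in G1 and 28, 33.8 and 25.5 in M-phase (-1.14 ± 0.26). The peak at chr14:42661939-42663069, 586425 bp from LRFN5, the nearest protein-coding gene, held 95.4, 100 and 126 in G1 and 46.6, 72.5 and 47.6 in M-phase (-0.87 ± 0.22). Of these 5 falls 2 have an AP-1 site in the central 200 bases, and they were printed above for that site. Among all tested distal peaks of the chromosome, 22.4% of those with an AP-1 site were lower and 23.1% of those without one.

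Below that mean, changes reached farther in both directions. The peak at chr14:21098754-21099387, also in window 5 and 10463 bp from a TSS, held 9.9, 7 and 5 in G1 and 52.3, 64.3 and 56.8 in M-phase (2.11 ± 0.28, limma adjusted p = 2.04e-09). The peak at chr14:70485416-70485922, within SMOC1, which encodes a secreted calcium-binding protein, held 54.7, 59.4 and 115 in G1 and 10.3, 9.1 and 6.7 in M-phase (-2.27 ± 0.28, limma adjusted p = 1.51e-10). Both were chosen after their values were seen, and neither has an AP-1 site.

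Among peaks with a mean of at least 50, the distal rises after that near RNASE11 were under 1 on the log2 scale. The peak at chr14:69281903-69283638, 19800 bp from ZFP36L1, a gene for an RNA-binding protein that destabilises mRNAs, held 72.6, 76.6 and 71 in G1 and 150.4, 135.6 and 138.6 in M-phase (0.88 ± 0.21). In an intron of ACTN1 the peak at chr14:69417548-69419801 held 100.4, 77.3 and 106 in G1 and 154.9, 171.8 and 155.9 in M-phase (0.73 ± 0.20). The peak at chr14:105292555-105293643 near ZBTB42 held 91.5, 64.1 and 67 and then 141.7, 126.1 and 127 (0.78 ± 0.21). An exon of the noncoding RNA LINC01303 lay under the peak at chr14:62027329-62030234, which held 197.8, 132 and 186 in G1 and 296.6, 295 and 264.7 in M-phase (0.72 ± 0.18). With an equal total in every library the ACTN1 and ZBTB42 peaks did not pass, with adjusted p-values of 0.0716 and 0.0623 and log2 changes of 0.40 and 0.45, and under the loess the LINC01303 peak did not (0.20, adjusted p = 0.344). The third highest distal peak, at chr14:105947060-105948558, rose from 144.4 ± 41.1 to 221 ± 35.6 (SD, n = 3).

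Summed over 5 Mb windows, promoter counts rose along nearly the whole chromosome while distal counts moved in both directions. Of 18 windows with enough promoter peaks 15 were higher in M-phase and 0 lower, where 68.9% and 1.08% of promoter windows on all autosomes were. The median log2 change was 0.72 against 0.54 over all windows. Window 6, with 4 promoter peaks, rose most, from 407.7, 346.1 and 521 to 879.1, 981.2 and 1049.5 (1.19 ± 0.19). Window 21 rose from 3892, 3359 and 4109 to 7697, 8523 and 8332 (1.11 ± 0.15). Windows 4, 17 and 18 did not pass, with log2 changes of -0.13, 0.37 and 0.12, and in each the libraries of the phases overlapped.

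**Figure D5:**
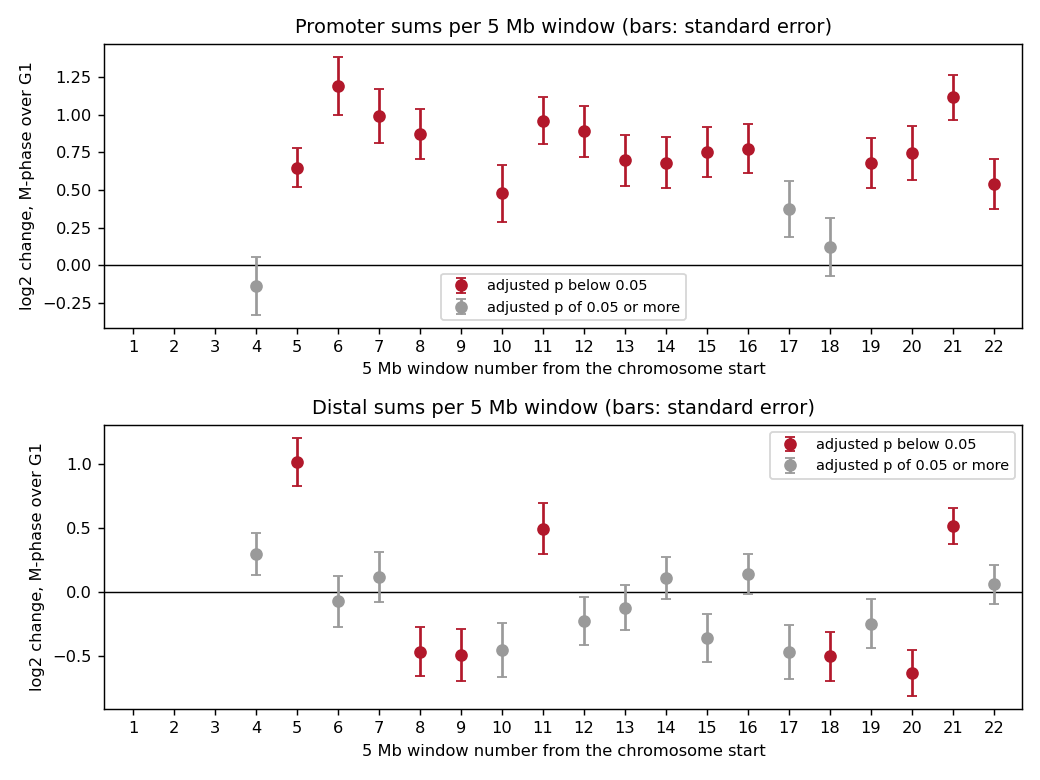
Log2 change of summed scaled counts, M-phase over G1, in each 5 Mb window of chromosome 14 for promoter peaks (top) and distal peaks (bottom), with error bars for the standard error and red for an adjusted p under 0.05. Promoter windows lie above 0 except window 4, while the called distal windows are 5, 11 and 21 above 0 and 8, 9, 18 and 20 below it.

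Of 19 distal windows 3 were higher and 4 lower, where 12.0% and 28.4% of distal windows on all autosomes were. Window 5 rose from 333.2, 321.1 and 426 to 694.1, 761.6 and 730.9 (1.01 ± 0.19, limma adjusted p = 3.52e-06). Most of this rise was the peak near RNASE11. The log2 ratio of the means was 0.40 without it, at 270.2 ± 34.4 in G1 and 360.3 ± 29.2 in M-phase (SD, n = 3), and the phases still did not overlap. Window 21 rose from 1146, 1241 and 1350 to 1670, 1743 and 1923 (0.51 ± 0.14). Window 11 rose by 0.49 ± 0.20. Window 20 fell most, from 732.5, 825.6 and 1060 to 504.8, 531.5 and 630.2 (-0.63 ± 0.18, limma adjusted p = 0.00221), and windows 8, 9 and 18 changed by -0.47 ± 0.19, -0.49 ± 0.21 and -0.50 ± 0.19. Promoter counts rose by 0.75 ± 0.18 in window 20 and by 0.87 ± 0.17 in window 8. In both windows promoter and distal peaks of the same 5 Mb thus moved in opposite directions. Over all autosomes 68.9% of promoter windows were called higher and 28.4% of distal windows lower. The number of distal windows called lower was 1 when G1 replicate 1 or any single M-phase library was left out, and 14 with an equal total in every library.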

How the data were processed

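ATAC-seq libraries of T98G cells in G1 (n = 3) and M-phase (n = 3) were analysed. By the methods of the paper, the authors trimmed reads (cutadapt), mapped them to the hg19 build (Rbowtie in QuasR, up to 3 locations, 1 kept), took out mitochondrial reads (samtools) and called broad peaks for each phase on its merged replicates (macs2). A peak list merged over replicates and phases favours sites that are strong in either phase. Tool versions and any Tn5 shift of read ends are not given in the sources used here. The deposited values are a signal: the authors counted reads in peaks, scaled each library to the smallest and rounded to 0.1. Between 99.9% and 100% of values lay on whole reads within that rounding. The deposited log2 columns of the authors' own comparison were not used, and 0 columns of per-sample values were left out.

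Peaks were placed by GENCODE release 44 lifted to GRCh37. CpG islands were computed from the sequence (score of 17 per CpG, at least 200 bp, GC of at least 50%, observed over expected CpG above 0.6). Copies are exact matches of the central 50 bases elsewhere in the assembly. A count model was foreseen in the plan. Since the values proved to be scaled, log2(scaled count + 8) was fitted by limma 3.58.1 (R 4.3.3, with a trend of the variance on the mean), without covariates. Peaks needed a value equivalent to at least 10 in at least 3 libraries and a total of at least 15. Windows needed at least 3 peaks of a class and were fitted as sums over all autosomes. p-values were adjusted by Benjamini and Hochberg over all peaks, or over all windows of a class. The fit was tested on simulated data. Other steps used Python 3.11.15, numpy 2.4.6, pandas 2.3.3, scipy 1.17.1, numba 0.67.0 and matplotlib 3.10.9. The added 8 makes log2 changes of low peaks smaller than those of their counts.

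The chromosome, the gene lists and the tests were chosen with earlier results of these data known. Named peaks are, for promoter and distal peaks apart, the 5 largest falls and rises among calls (adjusted p under 0.05) whose phases did not overlap and whose mean reached 50, and the 3 of highest mean. They also include, for each list, up to 4 genes of highest mean, of which 1 is not reported here. BRF1, CDKN3, FOS, HIF1A and PNN were chosen after their values were seen. The printed pair of distal falls was chosen among the named falls for its AP-1 sites. The distal peak with the copy on chromosome 22 is the strongest of window 4 with exactly 2 places in the assembly. The run of 40 bases is the longest that the largest distal rise at a mean of at least 50 and the RNASE11 and RNASE4 promoter peaks share on either strand. Alternatives were TMM scaling, an equal total in peaks, a trended loess, no filter, a pseudocount of 1, a replicate block, other definitions of distal peaks, 10 Mb windows and each replicate left out. Single-copy peaks and the sum of window 5 without its strongest peak were added after seeing the data. The RNA genes RPPH1 and RN7SL1 and the marker PECAM1 were not analysed here.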

Additional observations from a re-analysis of the deposited data

How the results depend on the processing

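Promoter rises on chromosome 14 stayed within 1.5 times the 236 called under the alternatives tried, with 170 calls under a trended loess, 172 with an equal total in peaks and 191 to 270 when 1 library was left out. The number of promoter falls was 5, and it was 31 with an equal total, 10 under the loess, 3 without a filter and 2 to 6 when 1 library was left out. Distal rises numbered 45, and 25 with an equal total. Promoter windows called higher numbered 15, and 8 of the larger windows of 10 Mb, and 1 promoter window was lower with an equal total. Distal windows called higher numbered 3, and 1 with an equal total, 1 with windows of 10 Mb and 1 to 6 when 1 library was left out. Those called lower numbered 4, and 14 with an equal total and 1 to 6 when 1 library was left out. Distal density was 6.54 per Mb, and 3.67 beyond 10 kb, 8.62 by protein-coding TSSs, 3.69 at a mean of at least 10 and 5.58 for single-copy peaks, and promoter density was 4.93 and 4.21 by protein-coding TSSs. The distal median relative to the other autosomes changed by -0.11 on the log2 scale from G1 to M-phase. The change was -0.0125 at a mean of at least 10 and -0.20 for single-copy peaks. Each of these values differed from -0.11 by more than the spread between replicates. The loess turned the changes of 4 promoter peaks negative, at PARP2 (-0.18), PPP2R5E (-0.00305), MAX (-0.12) and DAAM1 (-0.11), none of them past the threshold. The cause of these differences was not tested.

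The deviations of replicates of the same number had a Pearson's r across peaks of 0.0059, -0.010 and 0.028. Replicates of unlike number had -0.048 to 0.045. Counting error in low peaks can hide a shared deviation, so these values cannot decide whether replicates of the same number were prepared together. With the replicate block 244 promoter peaks were higher and 6 lower, 48 distal peaks were higher and 80 lower, and 6 distal windows were lower. Count models (edgeR and DESeq2) were not run, since the deposited values are scaled and rounded, and density per length without repeats was not run, since the reference used does not mark repeats. Depth limits the G1 values most, with at most 66456 reads on the chromosome, and 237 of 577 distal peaks were too low to test.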
